A study of Homo sapiens with 54 samples.

Results

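HepG2 cells, a human liver cancer line, were exposed to the mTOR inhibitor Torin1 at 1 µM and their messenger RNA was sequenced after 3 h and after 6 h. The 6 libraries described here, 3 for each hour, are 6 of the 54 libraries of the series and were taken by cell line, agent and hour in the labels. The comparison asks what changed between the third and the sixth hour of Torin1, and which of those changes went beyond the change over the same hours in HepG2 cells given interleukin 10 (IL-10) at 50 ng/mL, again with 3 libraries for each hour. HepG2 cells given interleukin 6 (IL-6) at 50 ng/mL or tumour necrosis factor (TNF-α) at 100 ng/mL for the same hours served as other time references. Their libraries also entered the fit of all 27 HepG2 libraries. The medium control, named NC, received an equal volume of complete medium, and its 3 libraries carry no time in the labels. All groups grew in DMEM with fetal bovine serum in 6-well plates, and the labels give no genetic modification. The labels describe the cells as liver cancer stem cells. The treatment text does not list IL-10, which the design text gives with its dose, and neither names a solvent control for Torin1. Untreated cells of each hour were not among the samples. Time in culture and time in Torin1 are thus set apart here only through libraries given other agents, IL-10 in the main fit. Those cells were themselves treated. The 3 libraries of a group are called biological replicates in the design text, but nothing ties them to separate cultures, so the p-values speak of the spread between these libraries alone, and that spread may be technical.

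Torin1 competes with ATP in the mTOR kinase and so blocks both complexes that this kinase forms. mTORC1 promotes translation, ribosome production and the SREBP transcription factors of lipid synthesis, and it holds back autophagy and the lysosomal transcription factor TFEB. mTORC2 activates AKT, which keeps FOXO transcription factors out of the nucleus. In liver cells FOXO factors drive genes that insulin represses, among them the binding protein gene IGFBP1 and the enzymes of glucose production. mTOR signalling also restrains growth factor receptor signalling through feedback, so inhibitors of mTOR are known to release receptor tyrosine kinases and the MAPK pathway.

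Levels are given as FPKM, fragment counts set against transcript length and a library size. That size followed a median-of-ratios factor, the median ratio of gene reads between libraries, and not the read total. Size over factor, scaled to centre on 1, ran from 0.988 to 1.009 across the HepG2 libraries. Differences are given as log2 values on the log2(FPKM + 1) scale, which understates the change of genes near 1 FPKM. Reads assigned to genes numbered 46.3 to 56.1 M in the 3 h Torin1 libraries and 54.2 to 65.8 M in those of 6 h, and all 27 HepG2 libraries spanned 46.3 to 93.7 M. The share of reads on the 13 genes of the mitochondrial genome was 7.36% to 8.32% across the Torin1 libraries. Of 8 hepatocyte markers, 7 stood at 1 FPKM or more in all 6 Torin1 libraries, with albumin (ALB) from 7720 to 8436 FPKM. The other, the apolipoprotein gene APOB, was listed at 0.120 to 0.169 FPKM, and whether the estimate failed for this gene was not tested. Of 10 colon epithelium markers 7 were listed at 0 in all 6, and the summed level of the list, nearly all of it the microvillus gene VIL1, was 44.2 to 45.2 FPKM at 3 h and 39.7 to 42.0 FPKM at 6 h. Of 10 fibroblast and endothelial markers 5 were listed at 0, and the sum was 0.795 to 0.964 FPKM at 3 h and 1.44 to 1.53 FPKM at 6 h, of which PDGFRB, a pericyte and fibroblast receptor, was the largest member. The blood cell list summed to 1301 to 1433 FPKM at 3 h and 1589 to 1701 FPKM at 6 h, nearly all from the lysozyme gene LYZ, while the leukocyte gene PTPRC and the globin gene HBB were listed at 0.

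Between 3 h and 6 h of Torin1, 4102 of 11280 tested genes (36.4%) differed, 1920 higher at 6 h (17.0%) and 2182 lower (19.3%), by limma at a Benjamini-Hochberg adjusted p under 0.05. The changes were small. On the log2(FPKM + 1) scale 7 of the rises and 10 of the falls reached a log2 value of 1 in size, and the median log2 value over all genes was -0.01. For 48.6% of genes the 3 libraries of one hour lay wholly above or below the 3 of the other. Over the same hours of IL-10, 725 genes rose (6.43%) and 1080 fell (9.57%), 16.0% in all. The difference of the 2 time changes, Torin1 minus IL-10, was called higher for 1336 genes (11.8%) and lower for 1027 (9.10%), or 20.9% together. With scaling to total reads that split turned to 1028 higher and 1538 lower, so that the share of higher calls went from 56.5% to 40.1%. In HepG2 as a bulk sample, fewer cells of a kind and less RNA per cell cannot be told apart.

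A change is called separated from the IL-10 time course here when it passed at 6 h against 3 h of Torin1 and the difference of time changes passed in the same direction. By this measure 938 rises (8.32% of genes tested) and 845 falls (7.49%) were separated, which is 48.9% of the genes that rose and 38.7% of those that fell under Torin1. A further 981 rises and 1265 falls were not called in the difference, and 1 rise and 72 falls were called in the opposite direction in the difference. The 2 Torin1 groups enter every one of these comparisons, so the calls are not independent of each other. With IL-6 in place of IL-10 as the time reference 911 rises and 1032 falls were separated, and with TNF-α 726 and 656. Of the 1783 genes separated against IL-10, 1344 were separated against IL-6 and 1086 against TNF-α.

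**Figure D1:**
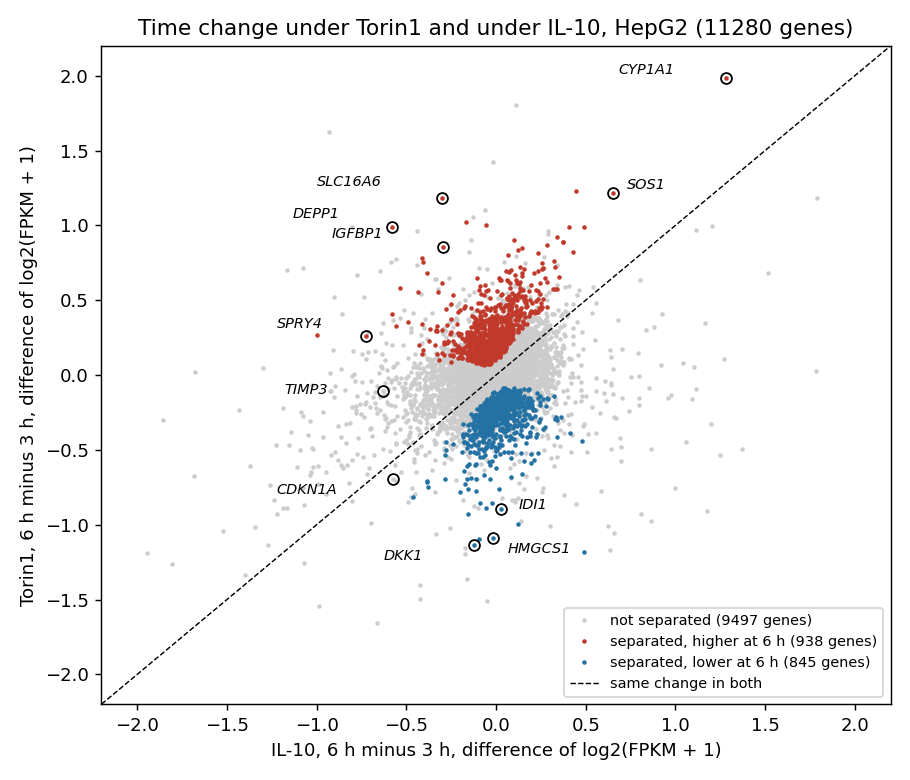
Each point is 1 of 11280 genes, with the change from 3 h to 6 h of IL-10 on the horizontal axis and of Torin1 on the vertical axis, both as differences of log2(FPKM + 1). Red points are the 938 separated rises, blue points the 845 separated falls, grey points the rest, the dashed line marks equal change under both agents, and 3 genes lie beyond the axes. CDKN1A lies near the dashed line, IGFBP1 and DEPP1 lie far above it and HMGCS1 and DKK1 far below it.

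IGFBP1 encodes a secreted binding protein for insulin-like growth factors and lies on chromosome 7 from 45888488 to 45893660 (GRCh38.p14). Its level was 508, 461 and 463 FPKM in the 3 h Torin1 libraries and 833, 858 and 901 FPKM in those of 6 h. In the IL-10 libraries it was 171, 165 and 144 FPKM at 3 h and 139, 136 and 117 FPKM at 6 h. The 6 Torin1 libraries thus stood above all 6 IL-10 libraries and above NC (124 ± 5.82 FPKM, SD, n = 3), and the Torin1 hours did not overlap. IGFBP1 rose 1.81-fold from 3 h to 6 h of Torin1 (log2 0.86, SE 0.088, limma adjusted p = 1.60e-07) and fell over the same hours of IL-10 (log2 -0.29, limma adjusted p = 0.025). The difference of the time changes was log2 1.15 (95% interval 0.89 to 1.41, limma adjusted p = 1.29e-06). It was log2 0.45 with the IL-6 time course as the reference and 0.57 with that of TNF-α, both passing.

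HMGCS1, the cytosolic HMG-CoA synthase at the entry to sterol synthesis, lies on chromosome 5 from 43287470 to 43313412. It was 82.1, 76.999 and 83.7 FPKM at 3 h of Torin1 and 37.1, 37.5 and 37.9 FPKM at 6 h. Its IL-10 libraries held 118, 101 and 96.7 FPKM at 3 h and 106, 102 and 104 FPKM at 6 h. The lowest values were the 3 Torin1 libraries of 6 h, which lay close together, while the IL-10 hours overlapped. HMGCS1 fell under Torin1 (log2 -1.09, SE 0.07, limma adjusted p = 2.33e-10), and the difference from the IL-10 time change (log2 -1.07, 95% interval -1.28 to -0.87, limma adjusted p = 1.99e-07) was nearly as large.

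CDKN1A encodes the cyclin-dependent kinase inhibitor p21 and lies on chromosome 6 from 36676463 to 36687332. It stood at 17.6, 18.1 and 15.5 FPKM after 3 h of Torin1 and at 9.80, 10.2 and 10.5 FPKM after 6 h, a fall with no overlap (log2 -0.69, SE 0.073, limma adjusted p = 2.28e-07). In the IL-10 libraries it went from 39.04, 42.6 and 37.9 FPKM to 26.8, 26.96 and 25.6 FPKM, also without overlap (log2 -0.57, limma adjusted p = 7.39e-06). CDKN1A thus fell under both agents, and the difference did not pass (log2 -0.12, 95% interval -0.34 to 0.09, limma adjusted p = 0.47). Its level under Torin1 was below IL-10 at 3 h (log2 -1.18) and at 6 h (log2 -1.30), both passing.

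**Figure D2:**
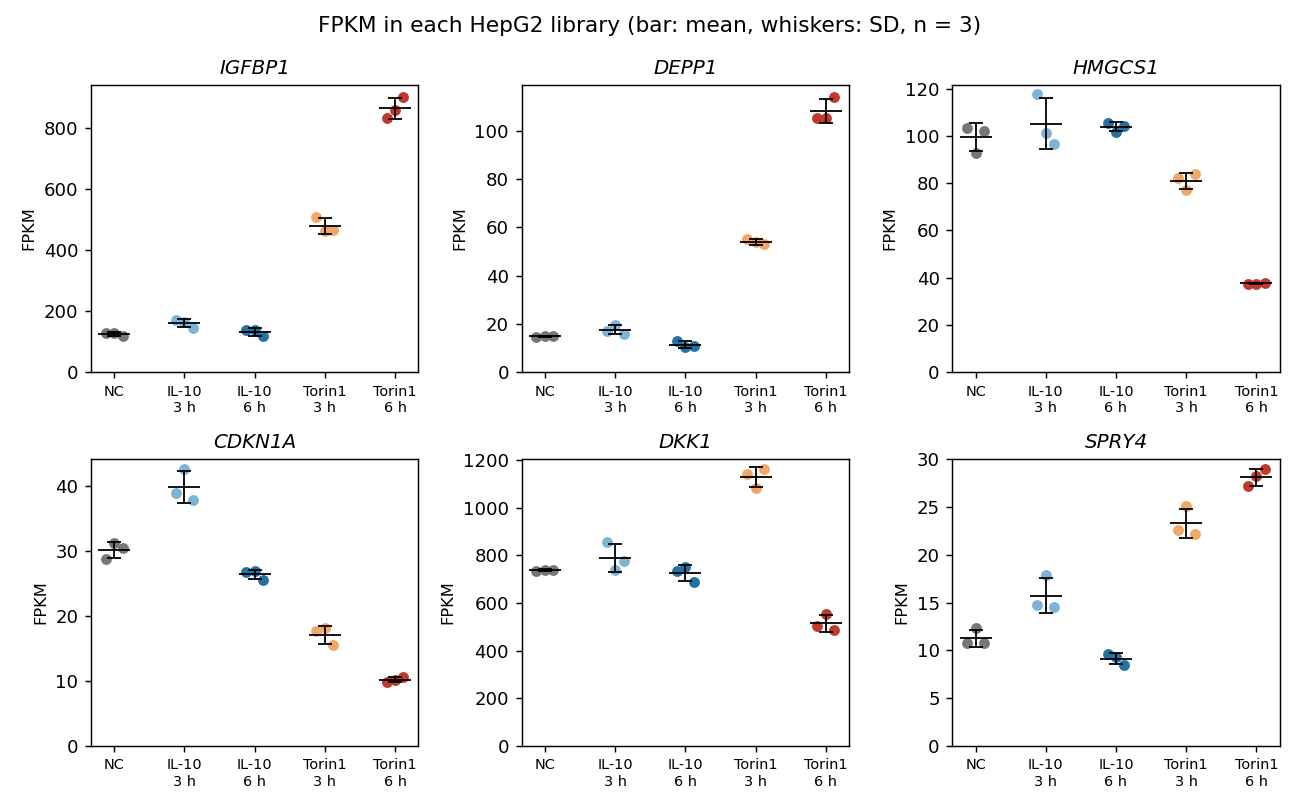
FPKM of 6 genes in the 15 HepG2 libraries of the NC, IL-10 and Torin1 groups, 1 point per library, with the mean as a bar and the SD as whiskers (n = 3). IGFBP1 and DEPP1 climb under Torin1 and fall under IL-10, HMGCS1 and DKK1 are lowest at 6 h of Torin1, CDKN1A falls under both agents, and SPRY4 falls under IL-10 while it rises under Torin1.

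The FOXO and insulin-repressed list held 24 tested genes, of which 12 rose, 5 fell and 7 did not pass from 3 h to 6 h of Torin1 (17.0% of all genes rose and 19.3% fell; median log2 0.14, against -0.01 over all genes). Of these changes 8 rises and 4 falls were separated (8.32% and 7.49% of all genes), and the median difference of time changes was 0.21. Against IL-10 of the same hour, 21 of the 24 were higher at 3 h of Torin1 (of all genes 45.5% differed, 21.5% higher and 24.0% lower) and 20 at 6 h (59.0%, 28.7% and 30.3%). DEPP1, a FOXO target outside the list that acts in autophagy, showed the pattern of IGFBP1. It was 55.2, 53.8 and 53.02 FPKM at 3 h of Torin1 and 105, 105 and 114 FPKM at 6 h, while its IL-10 libraries went down from 17.2, 19.5 and 15.97 FPKM to 12.97, 10.4 and 10.8 FPKM. The hours separated fully under each agent, upward under Torin1 (log2 0.99, SE 0.099, limma adjusted p = 1.17e-07) and downward under IL-10 (log2 -0.58, limma adjusted p = 2.28e-04). The difference for DEPP1 was log2 1.57, or 0.90 with IL-6 and 0.91 with TNF-α as the time reference. PPARGC1A, a coactivator of glucose production, rose from 2.79 ± 0.187 to 5.94 ± 0.324 FPKM (log2 0.87, SE 0.046, limma adjusted p = 1.01e-11) and RICTOR, the mTORC2 subunit, from 9.21 ± 0.248 to 11.5 ± 0.176 FPKM (log2 0.29, SE 0.047). RICTOR lost its call in the difference (log2 0.23) with total-read scaling (0.19) and with the TNF-α reference (0.08).

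Other members of that list fell between the hours. PCK1, which encodes the rate-limiting enzyme of glucose production, was 1.44, 1.32 and 1.31 FPKM at 3 h of Torin1 and 0.207, 0.263 and 0.243 FPKM at 6 h, against 0.374 and 0.234 FPKM (means of 3) under IL-10. It passed the filter on low values only through its 3 h Torin1 libraries, and its fall of log2 -0.93 was -2.11 with a pseudocount of 0.1. CCNG2, an unconventional cyclin linked to cell cycle arrest, was 9.83, 9.72 and 9.66 FPKM at 3 h and 5.12, 5.46 and 6.06 FPKM at 6 h of Torin1, and 1.60 and 0.987 FPKM under IL-10. Both Torin1 hours stood above every IL-10 library, and CCNG2 fell between them (log2 -0.72, SE 0.068, limma adjusted p = 5.01e-08). Its difference from the IL-10 fall (log2 -0.33) did not pass with a pseudocount of 0.1, with voom, or without Torin1 6 h replicate 1 (limma adjusted p = 0.0534) or IL-10 3 h replicate 3 (0.0563). The count of 8 separated rises became 5 with the TNF-α reference and 5 without Torin1 6 h replicate 3.

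The sterol synthesis genes, targets of SREBP2, moved together. Of 24 tested, 21 fell and 3 did not pass under Torin1 (median log2 -0.45), and 17 of the falls were separated, against 19.3% and 7.49% of all genes. Over the same hours of IL-10, 1 rose and 2 fell (median -0.02), where 6.43% of all genes rose and 9.57% fell. MSMO1, a C4-methylsterol oxidase, was 80.7, 75.03 and 82.6 FPKM at 3 h of Torin1 and 38.7, 39.5 and 40.03 FPKM at 6 h, against 97.1 and 106 FPKM under IL-10 (log2 -0.99, SE 0.063, limma adjusted p = 2.14e-10). Every 6 h library was below every 3 h library. IDI1, which isomerises isopentenyl diphosphate, fell from 63.2 ± 2.33 to 33.4 ± 0.457 FPKM (log2 -0.90). The sterol carrier gene STARD4 fell from 16.4 ± 1.02 to 8.61 ± 0.316 FPKM (log2 -0.86), and mevalonate kinase, MVK, from 6.61 ± 0.266 to 3.50 ± 0.267 FPKM (log2 -0.76). At 3 h, IDI1 (log2 0.00) and STARD4 (-0.01) did not pass against IL-10, and at 6 h both were lower (log2 -0.92 and -0.84). For the whole list, 9 of 24 were below IL-10 at 3 h and 20 at 6 h (24.0% and 30.3% of all genes), with medians of -0.08 and -0.53.

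These genes fell together, and the bases around their starts were searched for letters they share, in RefSeq windows from 250 bases before to 50 after each start, for short motifs on either strand. CCAAT, the box bound by the factor NF-Y, was present in 12 of the 13 separated sterol synthesis genes that had a window and in 15 of the 17 tested members that had one, against 43.7% of the 8559 tested genes with a window and 34.6% of all 35116 windows. The sterol regulatory letters CACCCCAC were in 1 of the 17 (3.3% of tested genes), and the GC box GGGCGG was in 16 (76.9%). CCAAT was also in 20 of the 22 G2/M genes with a window. The FOXO letters GTAAACA were in 4 of the 20 members of the FOXO list with a window (3.6% of tested genes), and in 0 of its 10 separated members with a window. A match describes letters in the window, not a site in use. Printed here, as examples of the groups that move and of 1 gene outside the FOXO list that holds GTAAACA, are the 250 bases before the start, 5′ to 3′ on the gene's strand in GRCh38.p14, of the sterol genes HMGCS1 (chr5:43313413-43313662, minus strand) and MSMO1 (chr4:165327419-165327668, plus strand), of the G2/M gene KIF23 (chr15:69414099-69414348, plus strand) and of DEPP1 (chr10:44978810-44979059, minus strand). Capitals mark CCAAT or its complement ATTGG, of which HMGCS1 has 2, MSMO1 has 4 and KIF23 has 1, and in DEPP1 the single GTAAACA. A second RefSeq window of HMGCS1 (chr5:43313182-43313431) holds no CCAAT.
HMGCS1: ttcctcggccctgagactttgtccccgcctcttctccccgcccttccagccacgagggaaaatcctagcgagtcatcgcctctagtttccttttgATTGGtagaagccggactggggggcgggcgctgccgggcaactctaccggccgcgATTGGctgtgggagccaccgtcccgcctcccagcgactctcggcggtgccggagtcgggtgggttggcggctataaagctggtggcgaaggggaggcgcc
MSMO1: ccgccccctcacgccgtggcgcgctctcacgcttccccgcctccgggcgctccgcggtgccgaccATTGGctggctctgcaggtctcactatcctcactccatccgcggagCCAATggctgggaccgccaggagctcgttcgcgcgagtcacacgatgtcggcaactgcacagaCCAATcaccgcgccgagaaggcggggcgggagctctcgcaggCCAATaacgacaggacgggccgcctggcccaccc
KIF23: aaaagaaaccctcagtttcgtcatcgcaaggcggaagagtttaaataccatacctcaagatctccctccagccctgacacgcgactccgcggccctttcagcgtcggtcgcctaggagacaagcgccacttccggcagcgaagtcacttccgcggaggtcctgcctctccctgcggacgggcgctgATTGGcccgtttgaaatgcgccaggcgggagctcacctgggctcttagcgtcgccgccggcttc
DEPP1: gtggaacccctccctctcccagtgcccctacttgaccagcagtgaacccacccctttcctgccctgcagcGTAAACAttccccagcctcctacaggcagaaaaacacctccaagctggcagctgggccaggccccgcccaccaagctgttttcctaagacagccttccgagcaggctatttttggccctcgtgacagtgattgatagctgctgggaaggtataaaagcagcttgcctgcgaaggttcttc

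Fatty acid synthesis genes, targets of SREBP1, also went down, by less. Of 14 tested, 9 fell and 5 did not pass (median log2 -0.21), and 7 falls were separated, against 19.3% and 7.49% of all genes. With the TNF-α reference 2 falls were separated. FASN, the fatty acid synthase, was 52.6, 58.7 and 56.1 FPKM at 3 h of Torin1 and 43.7, 40.7 and 43.6 FPKM at 6 h (log2 -0.38, limma adjusted p = 2.54e-04), with no overlap. FASN did not pass in the difference with the IL-6 reference (limma adjusted p = 0.0727), nor did the desaturase FADS2 (log2 -0.31) or the acetyl-CoA synthetase ACSS2 (log2 -0.29) with that of TNF-α (limma adjusted p = 0.198 and 0.0815). In the list of LXR targets and sterol efflux genes, 2 of 7 rose and 1 was separated (17.0% and 8.32% of all genes). It was SMPDL3A, a secreted phosphodiesterase, which went up from 15.5 ± 1.51 to 24.5 ± 0.465 FPKM under Torin1 (log2 0.63, SE 0.069, limma adjusted p = 3.37e-07) and stood at log2 0.06 under IL-10, not passing.

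**Figure D3:**
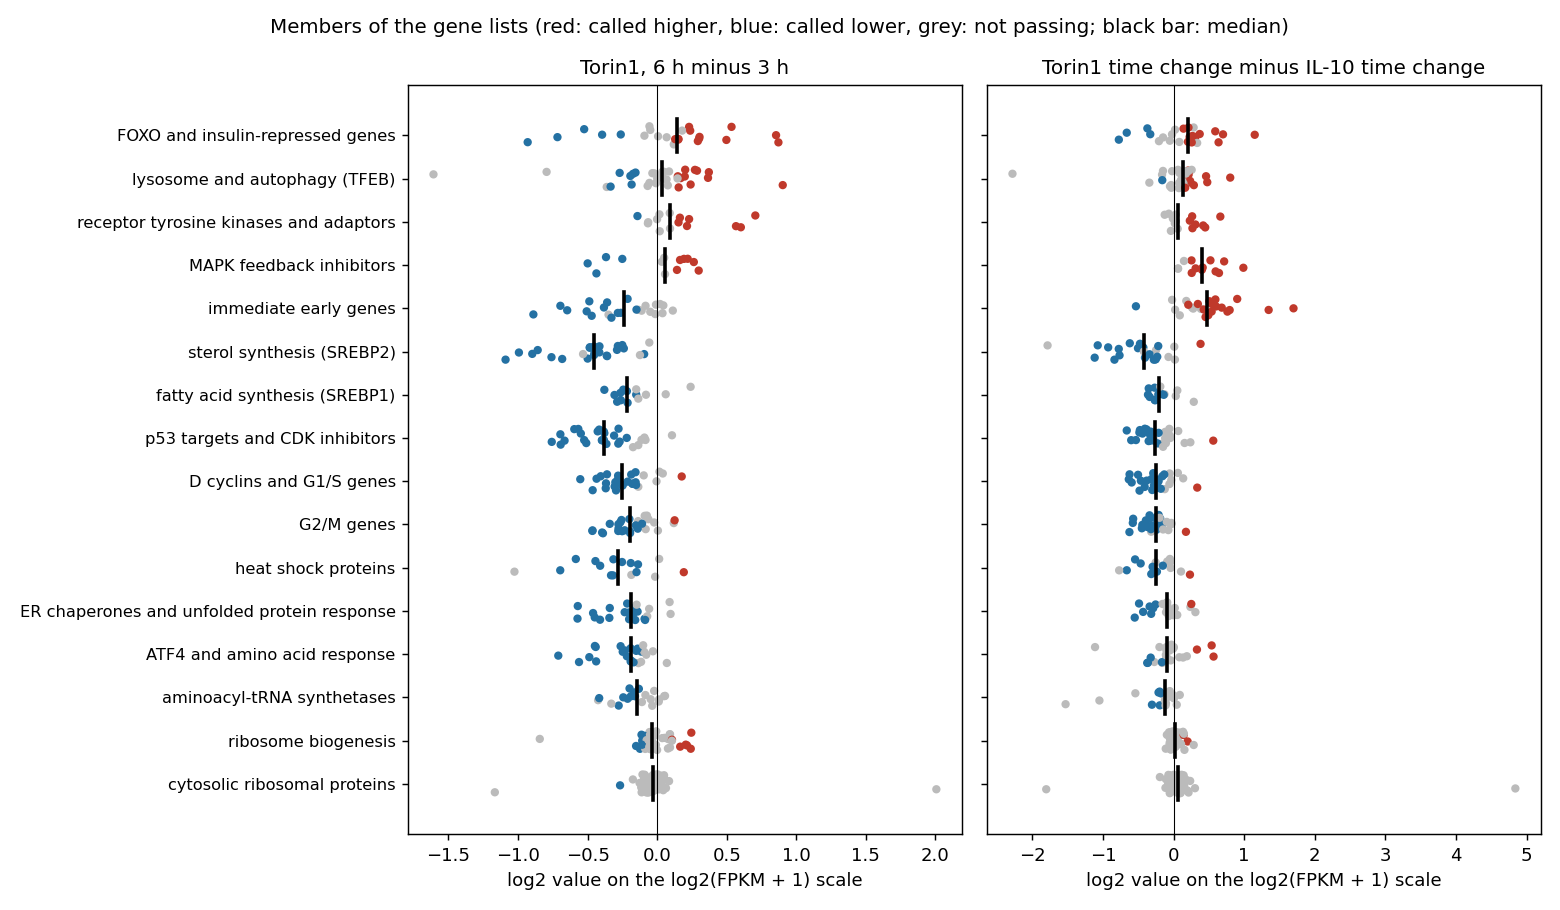
Members of 16 gene lists, each point 1 gene, with the change from 3 h to 6 h of Torin1 on the left and the Torin1 change minus the IL-10 change on the right, both as log2 values on the log2(FPKM + 1) scale. Red points were called higher, blue points lower and grey points did not pass, and the black bar is the list's median. The sterol synthesis median lies at -0.45 on the left and -0.41 on the right, while the immediate early median lies at -0.24 on the left and 0.47 on the right.

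Although CDKN1A itself was not separated, the list of p53 targets and cyclin-dependent kinase inhibitors was dominated by falls. Of 28 tested, 22 fell and 6 did not pass (median log2 -0.38), and 15 falls were separated, against 19.3% and 7.49% of all genes. Under IL-10 11 of the 28 fell and 2 rose (9.57% and 6.43% of all genes). BTG2, an antiproliferative p53 target, was 10.4, 11.3 and 11.1 FPKM at 3 h of Torin1 and 6.12, 7.02 and 5.97 FPKM at 6 h (log2 -0.69, limma adjusted p = 2.00e-09). PHLDA3, a p53-induced inhibitor of AKT, was 6.88, 6.95 and 6.49 and then 3.87, 3.66 and 4.17 FPKM (log2 -0.67, limma adjusted p = 7.59e-08). In both genes the 6 h libraries lay below all 3 h libraries, and both were already under the IL-10 level at 3 h (log2 -0.71 and -0.73). MDM2, the ubiquitin ligase that degrades p53, took another course. At 3 h of Torin1 its 54.8, 55.01 and 52.6 FPKM lay above IL-10 (log2 0.43, limma adjusted p = 9.81e-11), and at 6 h its 34.4, 35.8 and 36.3 FPKM did not differ from IL-10 at the threshold (log2 -0.06, 95% interval -0.12 to 0.00). SESN1, a stress-induced inhibitor upstream of mTORC1, fell under Torin1 from 8.73 ± 0.621 to 5.76 ± 0.204 FPKM (log2 -0.52) and rose under IL-10 (log2 0.14). The differences of BTG2 and MDM2 shrank with the IL-6 reference, from log2 -0.53 to -0.25 and from -0.48 to -0.25, and BTG2 to -0.22 with that of TNF-α, all passing.

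Genes of the cell cycle fell as well. D cyclins and G1/S genes, which serve entry into S phase and replication, gave 22 falls, 1 rise and 5 not passing of 28 (median log2 -0.25), and 20 falls were separated (13 with the TNF-α reference). Among all genes 19.3% fell, 17.0% rose and 7.49% were separated falls. UHRF1, which maintains DNA methylation behind the replication fork, was 22.5, 23.6 and 21.5 FPKM at 3 h of Torin1 and 14.7, 15.7 and 14.7 FPKM at 6 h (log2 -0.55, limma adjusted p = 4.20e-07). The sliding clamp gene PCNA fell from 328 ± 7.97 to 238 ± 16.9 FPKM (log2 -0.46), and the helicase subunit MCM6 from 24.1 ± 0.379 to 17.6 ± 0.297 FPKM (log2 -0.43). Under IL-10 these 3 genes stood at log2 0.08, 0.02 and 0.03, not passing. The 7 tested replication-dependent histone genes did not pass between the Torin1 hours (median log2 0.09), where 36.4% of all genes were called.

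The G2/M genes, which act in mitosis, started from another level. At 3 h, 27 of 28 stood above IL-10 in the Torin1 libraries (21.5% of all genes; median log2 0.46), and at 6 h 17 were above and 3 below (28.7% and 30.3%; median 0.22). From 3 h to 6 h of Torin1 19 fell, 1 rose and 8 did not pass, and 16 falls and the rise, that of CDC25B (named after its value was seen), were separated (19.3% of all genes fell, and 7.49% were separated falls). CENPA, the centromeric histone, was 54.2, 53.5 and 51.9 FPKM at 3 h and 36.5, 39.7 and 38.6 FPKM at 6 h of Torin1, against 29.4 and 31.8 FPKM under IL-10 (Torin1 change log2 -0.47, limma adjusted p = 7.53e-09). KIF23, a kinesin of cytokinesis, fell from 38.9 ± 1.17 to 27.9 ± 0.0323 FPKM (log2 -0.46). The mitotic kinase gene AURKA was 115, 113 and 112 FPKM at 3 h of Torin1 and 84.9, 87.7 and 85.3 FPKM at 6 h, while IL-10 took it from 84.7, 76.9 and 83.3 FPKM up to 94.8, 95.2 and 97.5 FPKM. The order of the agents thus turned for AURKA, with Torin1 above IL-10 at 3 h (log2 0.47) and below it at 6 h (log2 -0.15, limma adjusted p = 8.28e-04).

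Genes of lysosomes and autophagy, many of them targets of TFEB, gave more rises than falls. Of 35 tested, 11 rose, 6 fell and 18 did not pass under Torin1 (17.0% and 19.3% of all genes rose and fell; median log2 0.04). Of these 8 rises and 1 fall were separated, against 8.32% and 7.49% of all genes. WIPI1, which marks early autophagosome membranes, was 3.60, 2.81 and 3.29 FPKM at 3 h of Torin1 and 6.82, 6.57 and 7.31 FPKM at 6 h, against 1.85 and 2.06 FPKM under IL-10 (log2 0.90, SE 0.058, limma adjusted p = 2.52e-10). It was the largest rise among the separated members of the list. NPC1, the lysosomal cholesterol exporter, rose from 14.2 ± 0.489 to 18.7 ± 0.668 FPKM (log2 0.37), and GABARAPL1, of the ATG8 family, from 8.11 ± 0.696 to 10.7 ± 0.624 FPKM (log2 0.37). Against IL-10 of the same hour, 14 of the list were higher at 3 h and 23 at 6 h (21.5% and 28.7% of all genes). With the IL-6 reference 5 rises were separated, and GABARAPL1 no longer passed with IL-6 (limma adjusted p = 0.0538) or TNF-α (0.180). TFEB itself, named after its values were seen, rose by log2 0.27 and was below IL-10 at 3 h (log2 -0.31).

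Amino acid and protein folding genes went down. In the ATF4 and amino acid response list 17 of 24 fell and 7 did not pass (median log2 -0.19), where 19.3% of all genes fell. Over the same hours of IL-10, 10 of the 24 fell (9.57% of all genes). Separated falls numbered 4 (7.49% of all genes), or 9 with the IL-6 reference. The difference of time changes was higher for 3 of the 24, lower for 4 and did not pass for 17. Over all genes 11.8% were higher in the difference and 9.10% lower. The serine synthesis genes PSAT1 (179.6 ± 3.78 to 132 ± 4.45 FPKM, log2 -0.45) and PSPH (28.4 ± 1.07 to 20.7 ± 0.406 FPKM, log2 -0.44) were among the separated falls. DDIT4 encodes REDD1, a stress-induced inhibitor of mTORC1. It was 7.75, 7.92 and 8.30 FPKM at 3 h of Torin1 and 4.82, 4.41 and 4.26 FPKM at 6 h, against 63.3, 62.3 and 58.01 FPKM at 3 h and 46.5, 44.7 and 48.5 FPKM at 6 h of IL-10. The gap between the agents for DDIT4 was thus already wide at 3 h (log2 -2.79). Its later fall (log2 -0.71) exceeded that under IL-10 by log2 -0.32 (limma adjusted p = 0.00467), and did not pass with the IL-6 (0.494) and TNF-α (0.140) references. Of the aminoacyl-tRNA synthetases, which charge tRNAs, 9 of 20 fell and 11 did not pass, and 5 falls were separated (8 with total-read scaling, 9 with the IL-6 reference). The shares over all genes were 19.3% falls and 7.49% separated falls. YARS1 fell from 48.4 ± 2.66 to 36.01 ± 2.41 FPKM (log2 -0.42), with GARS1 at log2 -0.28 and TARS1 at log2 -0.21, both also called.

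ER chaperones and genes of the unfolded protein response gave 17 falls and 5 not passing of 22 (median log2 -0.19), with 7 falls separated (12 with total-read scaling and with the IL-6 reference). Over all genes 19.3% fell and 7.49% were separated falls. MANF, an ER stress-induced secreted factor, was 74.8, 72.2 and 69.6 FPKM at 3 h of Torin1 and 47.5, 50.9 and 46.3 FPKM at 6 h, with no overlap (log2 -0.57, limma adjusted p = 5.58e-09). HERPUD1, of ER-associated degradation, fell from 38.5 ± 0.659 to 27.7 ± 0.572 FPKM (log2 -0.46). Of the cytosolic heat shock proteins and cochaperones 11 of 16 fell, 1 rose and 4 did not pass (median log2 -0.28), and 8 falls and the rise, that of the cochaperone BAG3 (also named after its value was seen), were separated. For all genes, 17.0% rose, and 7.49% were separated falls and 8.32% separated rises. The HSP70 cochaperone DNAJA1 was 183, 171 and 174 FPKM at 3 h of Torin1 and 106, 111 and 107 FPKM at 6 h, while all 6 IL-10 libraries lay between 227 and 244 FPKM. It was below IL-10 at 3 h (log2 -0.42) and fell further by 6 h (log2 -0.70, SE 0.034, limma adjusted p = 3.57e-12). HSPA4L (log2 -0.58) and DNAJB4 (log2 -0.41) were the next largest separated falls of that list.

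Of 72 cytosolic ribosomal protein genes 1 fell and 71 did not pass (median log2 -0.03), against 36.4% called over all genes. Below IL-10 were 37 at 3 h of Torin1 and 21 at 6 h (24.0% and 30.3% of all genes). Of 41 ribosome biogenesis genes 6 rose, 6 fell and 29 did not pass (17.0% and 19.3% of all genes rose and fell, and 8.32% were separated rises). The single separated member, RRP12, rose from 20.1 ± 0.697 to 23.3 ± 0.949 FPKM (log2 0.21) and was no longer separated with the IL-6 (limma adjusted p = 0.263) or TNF-α (0.393) reference. Among 23 genes of the mTOR pathway itself 3 rose, 8 fell and 12 did not pass (17.0% and 19.3% of all genes rose and fell, and 7.49% were separated falls). RICTOR was the 1 separated rise, and the 3 separated falls were DDIT4, SESN1 and MAPKAP1, an mTORC2 subunit named after its value was seen (log2 -0.16).

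Immediate early genes, transcribed within minutes of a growth signal, fell in larger numbers under IL-10 than under Torin1. Under Torin1 13 of 24 fell and 11 did not pass (median log2 -0.24), where 19.3% of all genes fell. Under IL-10 22 fell (median -0.74), where 9.57% of all genes fell. The difference was positive for 16 and negative for 1, BTG2 (median 0.47), where 11.8% of all genes were higher in the difference and 9.10% lower. CCN1 and CCN2, matricellular genes named here after their values were seen, show the contrast. CCN1 was 41.99, 42.7 and 33.2 FPKM at 3 h and 36.4, 43.4 and 39.4 FPKM at 6 h of Torin1, and 28.04, 33.6 and 22.7 FPKM and then 8.33, 8.94 and 6.86 FPKM under IL-10. The Torin1 hours overlapped (log2 0.02, not passing), while CCN1 fell under IL-10 (log2 -1.68, limma adjusted p = 3.46e-08). CCN2 gave log2 0.05 under Torin1, not passing, and fell by 1.30 on the log2 scale under IL-10.

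Feedback inhibitors of the MAPK pathway, whose transcripts follow its activity, mostly fell under IL-10 and split under Torin1. Of 13 tested, 6 rose, 4 fell and 3 did not pass under Torin1 (median log2 0.06), while 11 fell under IL-10 (median -0.43). Of all genes 17.0% rose and 19.3% fell under Torin1, and 9.57% fell under IL-10. The difference was positive for 10 of 13, 5 of them separated rises, and all 13 stood above IL-10 at 6 h (11.8%, 8.32% and 28.7% of all genes). SPRY4, a Sprouty inhibitor of receptor signalling, was 22.6, 25.1 and 22.2 FPKM at 3 h of Torin1 and 27.2, 28.2 and 29.01 FPKM at 6 h. Under IL-10 it was 14.8, 17.9 and 14.5 FPKM and then 9.58, 9.27 and 8.47 FPKM. SPRY4 therefore rose under Torin1 (log2 0.26, limma adjusted p = 0.00802) and fell under IL-10 (log2 -0.72, limma adjusted p = 3.89e-07), with no overlap of hours under either agent. SPRY1 rose from 17.7 ± 0.642 to 20.4 ± 0.797 FPKM (log2 0.19), and the ETS factor gene ETV4 from 72.8 ± 1.82 to 89.7 ± 1.34 FPKM (log2 0.30).

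Receptor tyrosine kinases and their adaptors included 7 rises, 1 fall and 7 not passing of 15 (median log2 0.09), and 6 rises were separated. Of all genes 17.0% rose, 19.3% fell and 8.32% were separated rises. ERBB3, the partner of HER2, was 39.8, 40.2 and 39.8 FPKM at 3 h of Torin1 and 63.3, 66.6 and 67.5 FPKM at 6 h, against 23.02 and 27.7 FPKM under IL-10 (log2 0.71, SE 0.032, limma adjusted p = 2.07e-12). FGFR1 was 7.28, 7.53 and 7.42 FPKM at 3 h and 11.3, 11.4 and 12.7 FPKM at 6 h, and its IL-10 means were 7.47 and 7.10 FPKM. At 3 h FGFR1 was not told from IL-10 (log2 -0.01, 95% interval -0.11 to 0.09), and at 6 h it stood above (log2 0.66, limma adjusted p = 1.65e-10). The insulin-like growth factor receptor IGF1R rose from 1.68 ± 0.0288 to 2.96 ± 0.0941 FPKM (log2 0.57). SOS1, the exchange factor that links such receptors to RAS and no member of the list, rose from 12.5, 12.5 and 12.3 FPKM to 29.1, 31.01 and 30.5 FPKM (log2 1.22, limma adjusted p = 7.64e-13). SOS1 also rose under IL-10 (log2 0.65), and the difference was log2 0.57, or 0.34 with the IL-6 reference.

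**Figure D4:**
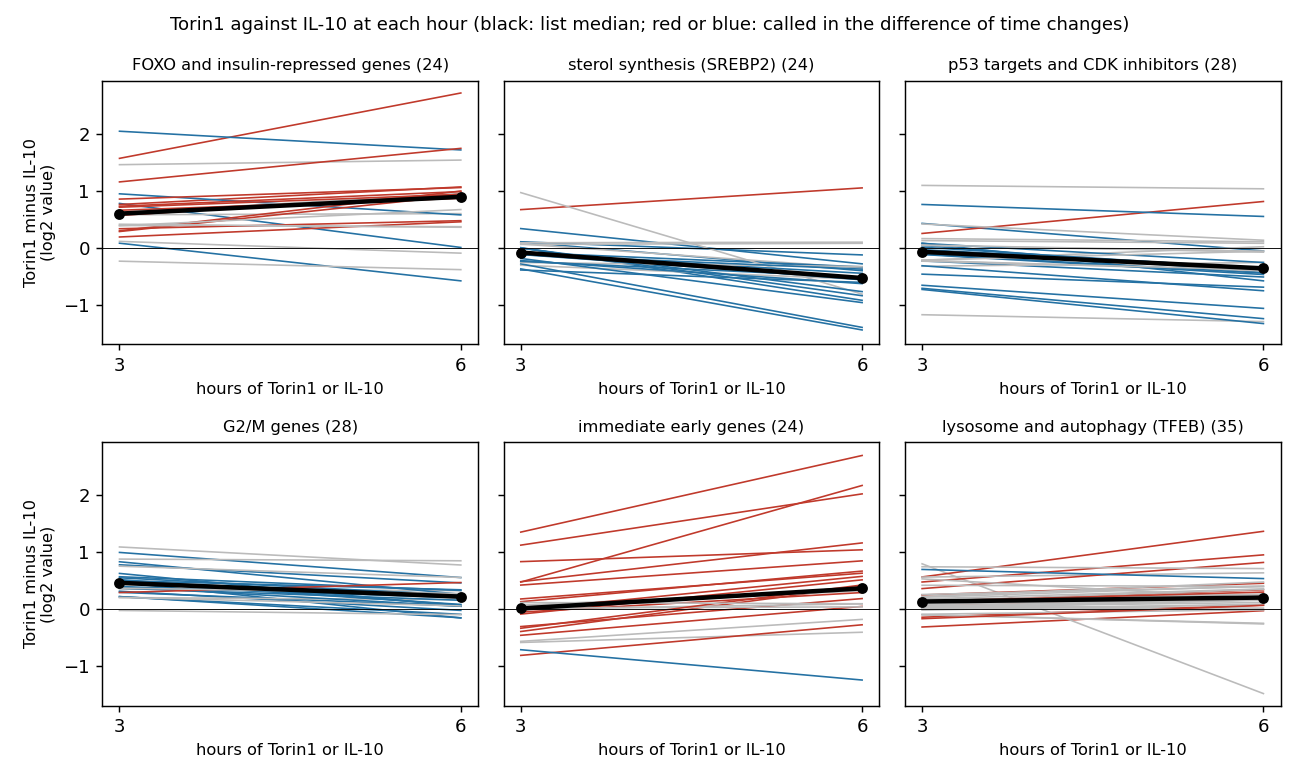
Torin1 minus IL-10 at 3 h and at 6 h, as log2 values on the log2(FPKM + 1) scale, for the tested members of 6 gene lists, each thin line 1 gene and the thick black line the list's median. Red lines were called higher and blue lines lower in the difference of time changes, and grey lines did not pass. The sterol median goes from -0.08 to -0.53, the FOXO median from 0.60 to 0.90 and the G2/M median from 0.46 to 0.22.

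Among 26 glycolysis and HIF1 genes there were 4 rises and 8 falls, and 14 did not pass (17.0% and 19.3% of all genes rose and fell). Of these changes 4 rises and 7 falls were separated (4 falls with the TNF-α reference), against 8.32% and 7.49% of all genes. The glucose transporter SLC2A1 was 43.4, 42.3 and 42.8 FPKM at 3 h of Torin1 and 66.02, 67.4 and 69.5 FPKM at 6 h (log2 0.65, SE 0.045, limma adjusted p = 5.68e-10), while IL-10 left it at 36.2 and 33.6 FPKM. NDRG1, a stress- and hypoxia-induced gene, rose from 8.62 ± 0.296 to 15.2 ± 0.764 FPKM (log2 0.75), and MXI1, an antagonist of MYC, from 6.36 ± 0.120 to 9.11 ± 0.638 FPKM (log2 0.46). The 4 separated rises were SLC2A1, NDRG1, MXI1 and the hexokinase gene HK2 (log2 0.28), the last named after its value was seen. The separated falls included the glycolytic enzyme genes PGAM1 (log2 -0.42) and ALDOC (log2 -0.33), also named after their values were seen.

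Genes of hepatocyte function gave calls in both directions, in shares to be read against the 36.4% called over all genes. Of all genes 17.0% rose and 19.3% fell, and 8.32% were separated rises and 7.49% separated falls. Of 23 negative acute phase and hepatocyte proteins 3 rose, 3 fell and 17 did not pass, and FOXA1, a pioneer factor of liver, was the separated fall (32.8 ± 0.979 to 26.7 ± 1.42 FPKM, log2 -0.28). Of 17 acute phase proteins 5 rose, 2 fell and 10 did not pass, with ORM2 (log2 0.29) the separated rise and HP (log2 -0.49) the separated fall. ORM2 lost its call between the hours in 7 alternatives, and HP lost that of the difference in 4 (limma adjusted p up to 0.153 and 0.0811). The ORM2 difference of log2 0.62 was 0.09 with the IL-6 reference and 0.10 with that of TNF-α, neither passing (limma adjusted p = 0.696 and 0.707). That of HP, log2 -0.41, was -1.05 with the IL-6 reference (limma adjusted p = 5.7e-06). How far IL-6 itself moved these 2 genes over the hours was not tested. In bile acid and drug metabolism 3 of 14 rose, 6 fell and 5 did not pass, and 2 rises (CYP1A1 and NR0B2) and 3 falls (CYP7A1, NR1H4 and SLC51A) were separated, NR0B2 and SLC51A being named after their values were seen. CYP7A1, the rate-limiting enzyme of bile acid synthesis, was 1.98, 1.74 and 1.88 FPKM at 3 h of Torin1 and 0.529, 0.634 and 0.485 FPKM at 6 h, with IL-10 means of 2.38 and 2.25 FPKM. It fell by log2 -0.89 on this scale (-1.61 with a pseudocount of 0.1). The bile acid receptor gene NR1H4 was above IL-10 at 3 h (log2 0.16) and below it at 6 h (log2 -0.38), falling from 15.6 ± 0.310 to 10.4 ± 0.304 FPKM. Of 15 clock genes 1 rose and 6 fell, and NFIL3 was the separated fall (10.3 ± 0.344 to 6.85 ± 0.237 FPKM, log2 -0.52). Under IL-10 7 of the 15 fell and 2 rose (9.57% and 6.43% of all genes).

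CYP1A1, a target of the aryl hydrocarbon receptor, had the largest separated rise of any gene at 5 FPKM or more with no copy row (no second row for its symbol in the table). It was 20.8, 20.2 and 19.5 FPKM at 3 h of Torin1 and 77.6, 86.9 and 84.1 FPKM at 6 h, and 20.6, 20.5 and 21.1 and then 52.2, 53.8 and 49.8 FPKM under IL-10, with NC at 46.98 ± 3.64 FPKM. Both agents stood below NC at 3 h and CYP1A1 rose under both (log2 1.98 and 1.28), and the difference was log2 0.70 (95% interval 0.54 to 0.86). TMC7 (log2 1.23 under Torin1, 0.45 under IL-10), the hyaluronidase gene CEMIP (0.99 and 0.41) and the TGF-β coreceptor TGFBR3 (0.92 and 0.34) likewise rose under both agents. So did BMF, a pro-apoptotic BCL2 relative (0.89 and 0.37), and KLHL14 (0.89 and 0.37).

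SLC16A6, a monocarboxylate transporter of ketone bodies, did not follow them. It was 8.74, 8.03 and 8.29 FPKM at 3 h of Torin1 and 19.3, 20.995 and 20.6 FPKM at 6 h, and 5.26, 4.64 and 4.64 and then 3.71, 3.95 and 3.56 FPKM under IL-10. It rose under Torin1 (log2 1.19, SE 0.056, limma adjusted p = 2.31e-12) and fell under IL-10 (log2 -0.30, limma adjusted p = 6.27e-04). GRAMD1A, a carrier of cholesterol between membranes, rose from 5.67 ± 0.255 to 12.4 ± 0.666 FPKM (log2 1.01) and stood at log2 -0.06 under IL-10, not passing. PDCD4, a translation inhibitor degraded downstream of mTORC1, rose from 19.5 ± 0.437 to 29.6 ± 0.917 FPKM (log2 0.58), among 15 antiproliferative genes with 5 rises, 7 falls and 3 not passing (4 rises separated, or 2 with the TNF-α reference, and 2 falls). Over all genes 17.0% rose and 19.3% fell, with 8.32% and 7.49% separated.

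DKK1, a secreted inhibitor of Wnt signalling on chromosome 10 from 52314281 to 52317657, had the largest separated fall among genes at 5 FPKM or more with no copy row. It was 1141, 1083 and 1165 FPKM at 3 h of Torin1 and 504, 555 and 485 FPKM at 6 h. Under IL-10 it was 856, 740.0 and 777 FPKM and then 734, 752 and 687 FPKM, and NC stood at 738 ± 4.08 FPKM. The 3 h Torin1 libraries were the highest of all these and the 6 h Torin1 libraries the lowest (log2 -1.13, SE 0.064, limma adjusted p = 2.52e-11). DKK1 thus crossed from above IL-10 at 3 h (log2 0.52) to below it at 6 h (log2 -0.49), both passing. Other large separated falls were those of VSNL1, a calcium sensor (19.6 ± 0.449 to 11.1 ± 0.955 FPKM, log2 -0.77), and the chemokine CX3CL1 (15.97 ± 0.309 to 9.13 ± 0.499 FPKM, log2 -0.74). The ubiquitin ligase SIAH2 fell as well (log2 -0.81), without passing in the difference when TNF-α was the reference (limma adjusted p = 0.0602).

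The separated genes were also set against IL-10 of the same hour. The difference of time changes is the Torin1 minus IL-10 value at 6 h less that at 3 h. By definition a separated rise thus stands higher against IL-10 at 6 h than at 3 h, and a separated fall lower. The counts only describe on which side of IL-10 these genes stood at each hour. Of the 938 separated rises 495 were above IL-10 at both hours, 316 passed only at 6 h, and 36 went from below at 3 h to above at 6 h. A further 76 were below at 3 h and no longer called at 6 h, 10 were below at both hours, and 5 were called at neither. Of the 845 separated falls 337 were below IL-10 at both hours, 329 passed only at 6 h, and 43 went from above to below, DKK1, AURKA and NR1H4 among them. The remaining 69 were above at 3 h and no longer called at 6 h, 60 stayed above, and 7 were called at neither.

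The design text names TIMP1, TIMP2, the MMP genes and EGF, so counts over this list are not independent evidence. Of 9 tested TIMP, MMP and EGF ligand genes 3 rose and 6 did not pass, and the 3 rises, TGFA, HBEGF and TIMP2, were separated (1 without Torin1 6 h replicate 2). Among all genes 17.0% rose and 8.32% were separated rises. TIMP1, an inhibitor of matrix metalloproteinases, was 12.6, 13.01 and 12.4 FPKM at 3 h of Torin1 and 12.4, 13.04 and 11.6 FPKM at 6 h, overlapping (log2 -0.04, 95% interval -0.21 to 0.14, limma adjusted p = 0.782). TIMP2 was 4.28, 4.53 and 4.15 FPKM and then 4.78, 5.29 and 4.71 FPKM, the 6 h libraries above the 3 h libraries (log2 0.15, limma adjusted p = 0.0381). The TIMP2 call was lost with no filter, with voom, in a fit of the contrast's libraries only and without Torin1 3 h replicate 1 or 3 or Torin1 6 h replicate 2 (limma adjusted p = 0.0534 to 0.177). TIMP3, which is anchored in the matrix, stood at 50.7, 47.8 and 48.2 FPKM and then 43.7, 46.2 and 46.4 FPKM under Torin1 (log2 -0.10, not passing although the hours did not overlap), and fell under IL-10 from 52.9, 55.4 and 53.4 to 33.9, 34.7 and 34.6 FPKM (log2 -0.63).

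The EGF receptor ligand TGFA was 8.03, 6.84 and 7.03 FPKM at 3 h of Torin1 and 10.5, 11.2 and 11.5 FPKM at 6 h (log2 0.54, limma adjusted p = 1.49e-08). HBEGF went from 2.13, 2.60 and 2.42 FPKM to 3.04, 3.75 and 3.08 FPKM (log2 0.34, limma adjusted p = 0.0084), a call lost without Torin1 6 h replicate 2 (limma adjusted p = 0.0558). Its difference did not pass with the IL-6 reference (0.208). The 6 h libraries of both genes lay above those of 3 h. The metalloproteinase genes MMP14 (log2 -0.07) and MMP15 (log2 0.10) did not pass between the Torin1 hours. The hours of MMP15 did not overlap, and it passed in a fit of the contrast's libraries only (limma adjusted p = 0.0398). Its difference (log2 0.13, not passing) passed with the IL-6 (log2 0.19, limma adjusted p = 0.0435) and TNF-α (log2 0.28, 0.00619) references. It also passed without IL-10 3 h replicate 1 (log2 0.19, limma adjusted p = 0.0284). EGF stayed under the filter, at most 0.0130 FPKM in any Torin1 library and listed at 0 in 2 of the 6.

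Of the markers of other cell types, LYZ rose from 1329.8 ± 66.99 to 1635 ± 61.6 FPKM under Torin1 (log2 0.30, adjusted p = 5.07e-05 by limma). The other 2 tested blood cell markers, CD68 (log2 -0.19) and CD14 (log2 -0.25), fell, as did VIL1 (log2 -0.12), and these 3 are named after their values were seen. PDGFRB was 0.581, 0.465 and 0.548 FPKM at 3 h and 1.16, 1.01 and 1.09 FPKM at 6 h, and it passed the filter on low values only through its 6 h Torin1 libraries. The LYZ difference did not pass with the IL-6 (limma adjusted p = 0.176) or TNF-α (0.0777) reference. The level of LYZ in NC, 1311 ± 8.26 FPKM, was close to that at 3 h of Torin1. The part of these genes in the other results was not tested, and the defining blood and fibroblast genes PTPRC, HBB, COL1A2, COL3A1, DCN and LUM were listed at 0 in all 6 Torin1 libraries.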

How the data were processed

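RNA captured by its poly(A) tail was sequenced as paired ends, and the authors deposited 1 table of FPKM for 54 libraries, here read for 50037 gene entries. Per the submitters' processing notes the tools were FastQC, HISAT2, StringTie and DESeq2 on GRCh38. Their versions are not given in the sources used here, and the 48 columns of the authors' comparisons were left aside. FPKM steps gave whole reads for all genes above 0 in HepG2 (tolerance 0.01 read, 100%), which gave the depths. In the shallowest library 1 read per kilobase was 0.0236 FPKM, so low genes are the least precise. The table does not show how shared reads were counted. Of its entries, 9392 belong to a symbol listed on more than 1 row (copy rows), and such genes are not named. Some genes used by every cell are listed at 0, so a 0 can be a failed estimate.

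Genes reaching 1 FPKM in 3 or more of the 27 HepG2 libraries (11280) were tested on log2(FPKM + 1) with limma 3.58.1 in R 4.3.3 (9 group means, trended variance, 18 residual degrees of freedom, Benjamini-Hochberg adjusted p under 0.05). The contrasts were 6 h minus 3 h of Torin1, the same of IL-10, their difference, and Torin1 minus IL-10 at each hour. All p-values were adjusted over all genes tested. Alternatives were pseudocounts, filters, scalings, voom on the recovered reads, other time references, the contrast's libraries alone, a replicate block and leaving out each library. The fit was tested on simulated data with the mean levels of these libraries and a single fixed dispersion for all genes. Changes were put only into genes above a limit on reads, so the rates hold for that setting. At a 1.5-fold change 94% of changed genes were called between the Torin1 hours (10911 genes) and 80% in the difference (10916 genes). At a 1.25-fold change the rates were 49% and 20%. The median change of separated genes was log2 0.25 for rises and -0.24 for falls.

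Genes were named by rule: the 3 markers, the 12 largest separated rises and falls at 5 FPKM or more without overlap of hours or a copy row, up to 3 separated members of each list, and the TIMP and MMP genes. The members and lists were chosen with earlier results of these data known. Promoter windows are RefSeq sequences of GRCh38.p14, whose table matched 44054 gene IDs. The design text describes a recovery group after Torin1, which was not analysed here. A member of the gene lists is counted but not reported here by name.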

Additional observations from a re-analysis of the deposited data

Results flagged for a closer look

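In 10 of the named genes the time change had opposite directions under Torin1 and under IL-10, each change passing on its own, and the difference of the time changes passed as well. These genes were IGFBP1 (log2 1.15), SLC16A6 (1.49), DEPP1 (1.57), SPRY4 (0.99), SPRY1 (0.40), ORM2 (0.62), MAX (0.34) and TIMP2 (0.37), which rose under Torin1 and fell under IL-10, and AURKA (-0.62) and SESN1 (-0.66), which fell under Torin1 and rose under IL-10. The calls of ORM2, MAX and TIMP2 between the Torin1 hours were each lost in 5 or more of the alternatives run. With other time references the ORM2 difference was 0.09 (IL-6) and 0.10 (TNF-α), neither passing (limma adjusted p = 0.696 and 0.707), that of MAX was 0.21 with TNF-α and did not pass (limma adjusted p = 0.0509), and those of IGFBP1 (0.45 and 0.57), DEPP1 (0.90 and 0.91) and, with TNF-α, SPRY1 (0.17) were smaller and passed. Over all tested genes 130 were called higher at 6 h of Torin1 and lower at 6 h of IL-10, and 89 the reverse. The groups have 3 libraries each, which is too few for the search for a single library far from the others.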

How the results depend on the processing

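Without 1 library at a time, the genes called between the Torin1 hours numbered 1558 to 1772 higher and 1689 to 2131 lower, the difference of time changes gave 1093 to 1395 higher and 819 to 1068 lower, and separated genes 732 to 951 and 662 to 871. A filter at 5 FPKM, which tests fewer genes, left 1247 genes called higher and 1828 lower between the Torin1 hours, against 1920 and 2182. The share of higher calls went from 46.8% to 40.6%, and why the rises shrank more was not tested. Among the genes named by rule, sign changes were seen for TIMP1 and MMP14, which did not pass in the fit reported. TIMP1 ranged from -0.07 to 0.00 between the hours, the latter without Torin1 6 h replicate 3, and its difference was -0.36 with the IL-6 reference (limma adjusted p = 0.031) and -0.11 with TNF-α. The MMP14 difference was 0.01 with TNF-α and ranged from -0.08 to 0.02 without single libraries, with 0.00 without Torin1 3 h replicate 2, and 0.02 without Torin1 6 h replicate 1 or 3 or the IL-10 replicate 1 of either hour. The cause was not tested. Replicate numbers are shared by the groups, and the fit reported did not pair them. Between the 3 h and 6 h libraries of Torin1, and of IL-10, same-numbered libraries did not deviate together (r from -0.05 to 0.06). Libraries of different agents were not compared in this way, and such values cannot say whether same-numbered libraries shared a culture. With a replicate block 1945 genes were higher and 2247 lower between the Torin1 hours, 1357 and 1084 in the difference, and 949 and 895 were separated. The voom fit on recovered reads called 1897 genes higher and 2133 lower between the Torin1 hours, with 933 separated rises and 861 falls. A fit without copy-row genes (943 rises and 857 falls separated) and the recounts of the gene lists under each alternative were chosen after seeing the data. Depth limits genes near the filter, and a change in the difference has to be larger than one between hours to pass, as it rests on 4 groups.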

Other observations

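Genes that changed sides against IL-10 between the hours were read further, chosen after their values were seen. Of the 43 genes above IL-10 at 3 h of Torin1 and below it at 6 h, 35 had 5 FPKM or more and no copy row. SLC25A33, a mitochondrial pyrimidine nucleotide carrier, fell from 43.2 ± 2.21 to 28.3 ± 0.792 FPKM (SD, n = 3) between the Torin1 hours, with 38.3 and 34.5 FPKM as the means under IL-10. E2F8, a repressor of the E2F family, fell from 11.02 ± 0.480 to 7.004 ± 0.433 FPKM, and TICRR, needed to start replication, from 7.60 ± 0.319 to 4.97 ± 0.0340 FPKM. Both rose under IL-10 (log2 0.19 and 0.23).

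Of the 36 genes that went from below IL-10 to above it, 16 passed the same limits. MIXL1, a homeobox gene of early mesendoderm, rose from 21.5 ± 1.54 to 29.7 ± 1.15 FPKM (log2 0.45), and ARRB1, which encodes the signalling adaptor beta-arrestin, from 4.44 ± 0.217 to 6.60 ± 0.218 FPKM (log2 0.48). Their IL-10 hours did not pass (log2 -0.18 and -0.10).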
